A study of Mus musculus with 6 samples.

Results

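Interferon-stimulated genes are the genes a cell switches on when an interferon binds its receptor, and 36 of them were followed here in mouse brown adipose tissue. They are a list of known interferon response genes, 26 of which are counted as the type I class and 10 as the interferon gamma class. All 36 were matched by symbol to 1 of the 45320 Ensembl gene identifiers in the deposited tables. The tissue came from C57BL/6 mice that were 4 weeks of age when a calorie-rich diet, high in sugar and fat, began. After 4 weeks of it the treated mice received the same food plus RO5508887, a small molecule under study that blocks the protease BACE1, and the untreated mice stayed on the diet alone. No lean or chow-fed group is among the samples, and no source used here gives the dose of RO5508887 or the time on it. Of the 3 treated samples (17, 33 and 35), 33 and 35 had tables that match in every value and are counted as 1 library, treated 33/35. The comparison is therefore between 2 treated libraries (17 and 33/35) and 3 untreated libraries (13, 14 and 15).

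Type I interferons, which include the interferon alpha genes and interferon beta, act through the kinases JAK1 and TYK2 and a complex that includes STAT2 and IRF9, which binds DNA elements called ISREs (interferon-stimulated response elements). Interferon gamma, made mainly by T cells and natural killer cells, acts through JAK1 and JAK2 on GAS elements (gamma-activated sites), and induces IRF1, which in turn acts on ISREs. Most cells, adipocytes and macrophages included, hold these receptors, the classes overlap in their targets, and a gene is placed here in the class it is best known for.

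Values are FPKM, a read count scaled by transcript length and sequencing depth, so levels can be set side by side between genes. The labelled tissue was checked by 8 brown adipocyte markers, all of which passed the filter, and Ucp1, the uncoupling protein of brown fat, measured 1119 and 1321 FPKM in treated 17 and 33/35, against 1837, 227 and 1912 FPKM in untreated 13, 14 and 15. Untreated 14 stood apart. Its 22 skeletal muscle markers took 6.17% of all FPKM, more than the 2.49% and 1.06% of treated 17 and 33/35 and the 0.0301% and 0.0279% of untreated 13 and 15. Between 20876 and 21726 genes had a value above 0 in a library, and read totals were unknown. Whether the samples came from separate animals is not stated, so the spread behind each p-value is that between libraries and may be technical.

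Promoters of a few members are shown for the elements through which interferons act. Of the 36 members, 27 had at least 1 promoter of 300 bases, from 250 before to 50 after an annotated start, in the RefSeq table of build GRCm38.p6. Bst2, Gbp2 and the others among the 27 were searched on both strands for the ISRE core GAAANNGAA and the GAS core TTCNNNGAA, and overlapping matches were each counted. The remaining members, Iigp1, Oas2, Mx1, Mx2, Usp18, Dhx58, Rtp4, Parp14 and Zbp1, are named only. Sequences run 5′ to 3′ on the strand of the gene, capitals mark the matches, and a match on the other strand reads as its reverse complement.

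The Ifit family includes RNA-binding inhibitors of viral translation. Isg15, the ubiquitin-like modifier, and the neighbours Ifit1 and Ifit3 held 3 ISRE cores each, the most of any member searched. The windows are chr4:156200769-156201068, minus strand, chr19:34640639-34640938, plus strand, and chr19:34583279-34583578, plus strand.
Isg15: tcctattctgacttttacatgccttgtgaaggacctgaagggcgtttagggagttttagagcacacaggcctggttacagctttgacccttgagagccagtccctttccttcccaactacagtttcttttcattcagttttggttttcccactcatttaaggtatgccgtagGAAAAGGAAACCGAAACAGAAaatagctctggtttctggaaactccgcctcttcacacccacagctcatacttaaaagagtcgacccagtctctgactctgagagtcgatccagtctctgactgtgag
Ifit1: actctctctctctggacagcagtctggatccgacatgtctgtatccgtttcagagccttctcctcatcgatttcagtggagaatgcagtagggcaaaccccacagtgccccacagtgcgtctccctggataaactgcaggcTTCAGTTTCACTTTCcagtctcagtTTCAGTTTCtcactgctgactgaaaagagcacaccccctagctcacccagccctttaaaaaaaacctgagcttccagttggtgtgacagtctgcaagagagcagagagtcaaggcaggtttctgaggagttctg
Ifit3: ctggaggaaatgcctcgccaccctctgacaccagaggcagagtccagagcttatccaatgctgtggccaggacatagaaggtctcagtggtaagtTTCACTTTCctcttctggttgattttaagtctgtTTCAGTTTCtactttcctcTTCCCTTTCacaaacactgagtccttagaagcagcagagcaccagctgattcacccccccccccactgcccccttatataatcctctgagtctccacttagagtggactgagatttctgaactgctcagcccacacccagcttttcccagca
In Isg15, 3 overlapping cores began 78, 72 and 66 bases before the start. Ifit1 held cores 109, 103 and 84 bases before its start, and Ifit3 held them 155, 121 and 102 bases before its start. Other type I members held fewer or none, and Gbp3 and Irgm1 of the gamma class each held 2 in a window.

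Ifih1, Igtp and Irf1 are shown from among the members whose treated and untreated libraries did not overlap. Cxcl10 is shown because its ratio of highest to lowest library was the largest of all members. The windows are chr2:62646206-62646505, minus strand, chr11:58199306-58199605, plus strand, chr11:53769764-53770063, plus strand, and chr5:92348840-92349139, minus strand.
Ifih1: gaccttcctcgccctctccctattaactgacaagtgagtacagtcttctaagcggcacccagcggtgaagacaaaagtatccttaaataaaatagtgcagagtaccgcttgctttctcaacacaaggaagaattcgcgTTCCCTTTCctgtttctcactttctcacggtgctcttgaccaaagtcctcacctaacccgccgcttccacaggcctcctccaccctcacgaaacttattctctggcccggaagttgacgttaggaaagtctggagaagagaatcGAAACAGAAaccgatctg
Igtp: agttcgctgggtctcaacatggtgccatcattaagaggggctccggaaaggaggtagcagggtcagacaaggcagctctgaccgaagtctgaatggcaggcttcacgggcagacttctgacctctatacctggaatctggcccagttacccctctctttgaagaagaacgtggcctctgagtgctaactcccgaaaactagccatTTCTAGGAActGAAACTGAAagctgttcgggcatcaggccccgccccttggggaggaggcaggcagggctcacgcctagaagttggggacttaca
Irf1: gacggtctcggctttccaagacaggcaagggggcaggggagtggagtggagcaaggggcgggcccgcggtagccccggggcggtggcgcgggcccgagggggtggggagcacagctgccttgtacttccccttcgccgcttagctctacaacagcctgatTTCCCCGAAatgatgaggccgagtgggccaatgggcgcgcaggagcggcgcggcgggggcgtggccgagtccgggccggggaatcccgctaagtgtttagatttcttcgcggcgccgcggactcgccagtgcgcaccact
Cxcl10: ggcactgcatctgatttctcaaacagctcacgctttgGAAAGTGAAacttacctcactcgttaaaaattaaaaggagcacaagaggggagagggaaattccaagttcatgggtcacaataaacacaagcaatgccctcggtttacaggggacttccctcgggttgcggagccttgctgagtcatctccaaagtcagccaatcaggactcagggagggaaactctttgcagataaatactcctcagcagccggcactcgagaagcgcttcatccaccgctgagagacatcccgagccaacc
Igtp held a GAS core 45 bases before the start and an ISRE core 34 bases before it. Irf1 held a GAS core 90 bases before the start and no ISRE core in this window. Ifih1 held ISRE cores 112 bases before and 32 bases after the start, and Cxcl10 held 1 that began 213 bases before it.

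Across the members with a promoter, 20 of 27 (74.1%) held an ISRE core, against 9.76% of the 27025 genes in the table. The share was 12 of 18 in the type I class and 8 of 9 in the gamma class. A GAS core was found in 8 of 27 members (29.6%), against 9.55% of all genes, with 4 of 18 in the type I class and 4 of 9 in the gamma class. Both cores were found in 5 members and neither in 4, which were Oasl2, Irf7, Xaf1 and Irf9. Such matches describe the letters in the window and do not show that a factor binds there.

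Interferon-stimulated genes were present at low to moderate levels in both groups of libraries, and no member passed the test for a change with RO5508887. Mean levels over the 5 libraries ran from 0.106 FPKM (Oas3) to 25.5 FPKM (Bst2) in the type I class and from 2.46 FPKM (Cxcl10) to 15.6 FPKM (Irf1) in the gamma class. The median member had a mean level of 3.67 FPKM in the type I class and 6.47 FPKM in the gamma class, and the median over all genes tested was 9.45 FPKM. Summed over the class, type I genes reached 127 ± 0.849 FPKM in treated libraries (SD, n = 2) and 120.1 ± 4.58 FPKM in untreated libraries (SD, n = 3). The gamma class reached 84.0 ± 4.90 FPKM in treated libraries (SD, n = 2) and 81.3 ± 2.02 FPKM in untreated libraries (SD, n = 3). Type I sums were 126.5 and 127.7 FPKM in treated 17 and 33/35, both above the highest untreated sum of 125 FPKM, and gamma sums overlapped between the groups. As a share of all FPKM, both classes overlapped between the groups. Type I genes took 0.0212% and 0.0207% in treated 17 and 33/35, against 0.0194%, 0.021% and 0.0181% in untreated 13, 14 and 15. By the median log2 level of tested members, the type I class overlapped as well. Gamma medians did not, at 3.035 and 3.05 in treated libraries, against 2.857, 2.727 and 2.802 in untreated libraries. Separation in either class thus depended on the measure. These sums, shares and medians carry no test.

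**Figure D1:**
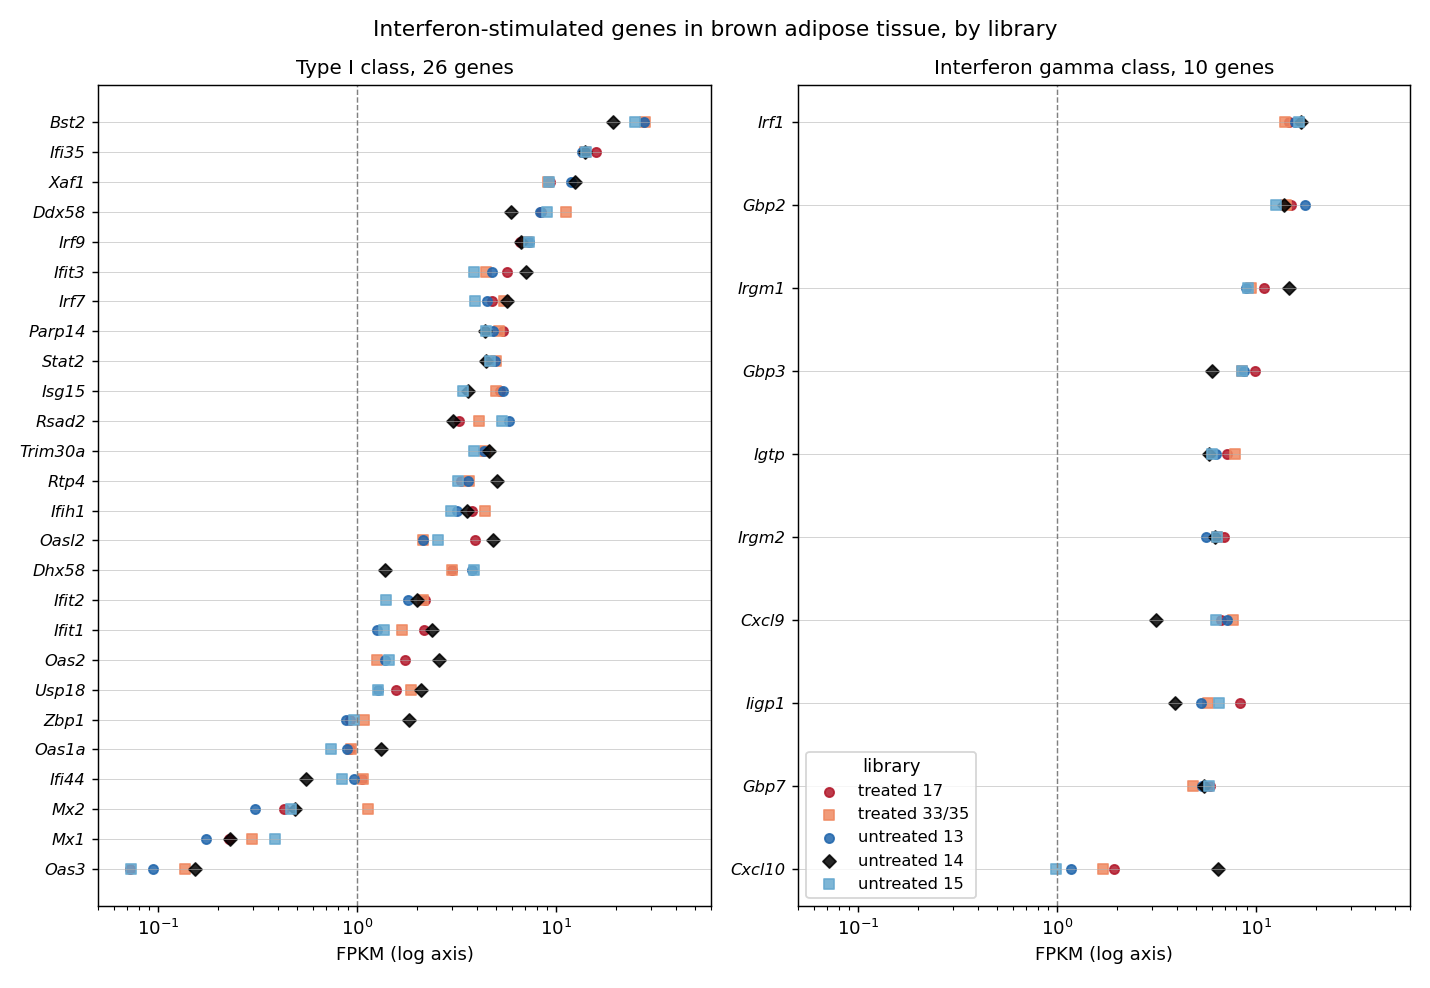
FPKM of all 36 members in each library (log axis), type I class on the left and gamma class on the right, ordered by mean level; each point is 1 library and the dashed line marks the mean of 1 FPKM below which genes were not tested. Most genes hold their 5 points close together, and the black diamonds of untreated 14 lie farthest out for Cxcl10 (6.48 FPKM), Dhx58 (1.38 FPKM) and Cxcl9 (3.14 FPKM).

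Genes averaging 1 FPKM or more across the 5 libraries were fitted with limma as log2(FPKM + 0.5), and p-values were adjusted over all 13527 genes tested by the method of Benjamini and Hochberg. The filter kept 31 members, 21 of type I and 10 of gamma, and left out Oas1a, Oas3, Mx1, Mx2 and Ifi44. None of the 31 (0 members) had an adjusted p under 0.05 in limma, and 0 had an unadjusted p under 0.05. Over all 13527 genes, 6 were called (0.0444%) and 125 had an unadjusted p under 0.05, so small p-values were rare for any gene in this fit. Without untreated 14, 1634 of 13368 genes had an unadjusted p under 0.05 in limma. Treated libraries had the higher mean log2 level for 19 members and the lower for 12, by 13 to 8 in the type I class and 6 to 4 in the gamma class, while over all genes the count was 8704 to 4823. The median log2 fold change, treated minus untreated, was 0.089 in the type I class, 0.060 in the gamma class and 0.061 over all genes. After quantile normalization, which gives every library the same distribution of values, the members split 12 to 19 and these medians turned to -0.068, -0.045 and -0.038.

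The intervals say how large a change these libraries could still hold. For 22 of 31 members (71%) the 95% interval of the log2 fold change lay within 1 on either side of 0, which is a doubling or a halving, and over all genes the share was 62.3%. The median interval reached 0.566 to either side for the members and 0.689 for all genes. With 1 treated library left the limits were wider: 10 of 31 members (32.3%) had an interval within 1 without treated 17, with a median reach of 0.934, and 12 of 31 (38.7%) without treated 33/35, with a median reach of 0.920. On the scale of FPKM + 0.5, the highest library was less than double the lowest for 27 of 31 members (87.1%), against 68.1% of all genes. In FPKM alone the median ratio of highest to lowest library was nearer alike, 1.57 for the members and 1.69 for all genes. These values describe the list and were not tested. The widest intervals were those of Cxcl10, Dhx58, Oasl2 and Cxcl9, each of which passed 1 on at least 1 side of 0.

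**Figure D2:**
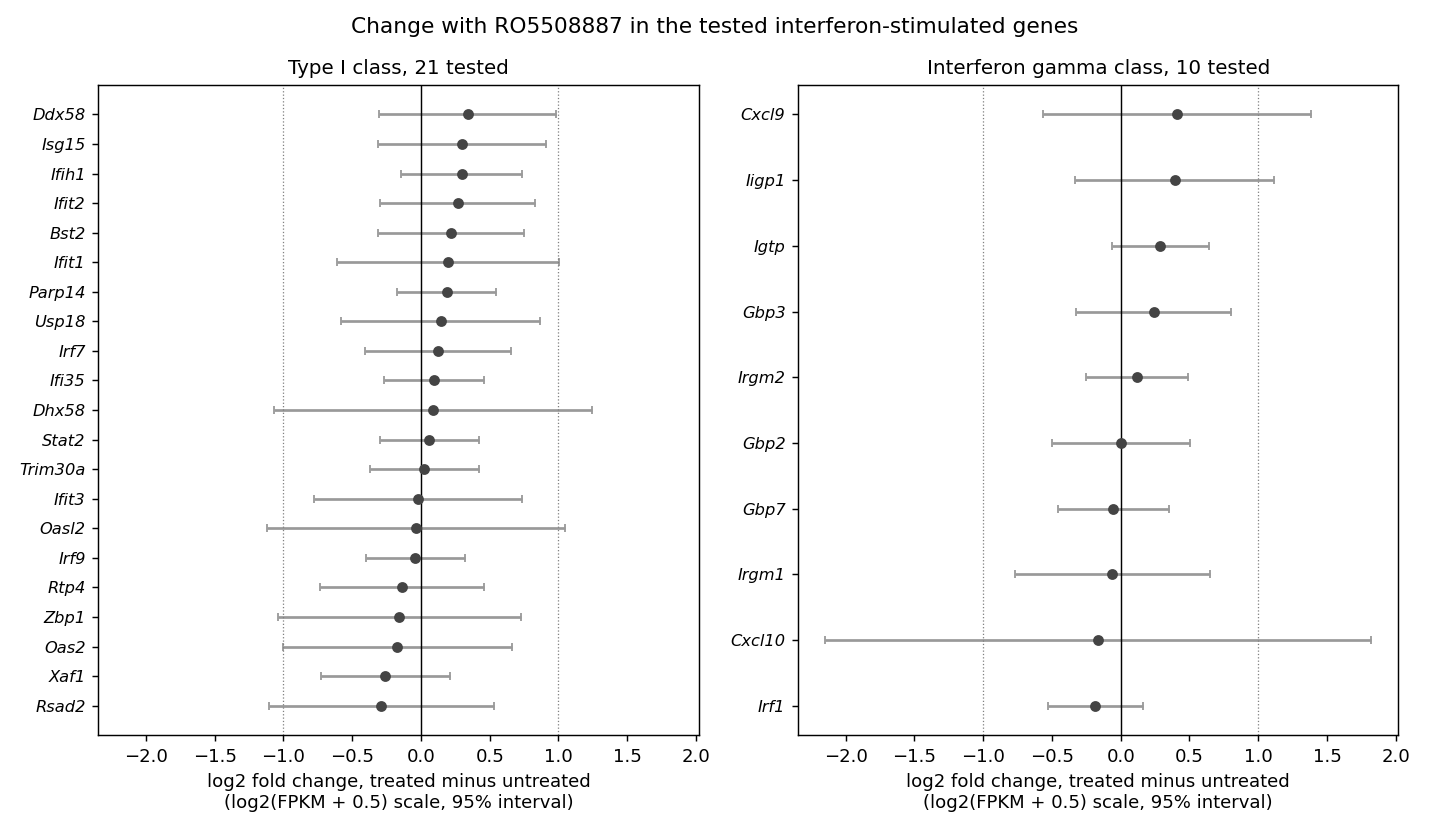
Log2 fold change of each tested member, treated minus untreated, on the log2(FPKM + 0.5) scale (points) with its 95% interval from limma (bars), from 2 treated and 3 untreated libraries; dotted lines mark -1 and 1. Every bar crosses 0, and the bar of Cxcl10, from -2.15 to 1.82, is the longest.

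A second description counts genes for which both treated libraries lay on the same side of all 3 untreated libraries. Both were higher for 4 of 31 members (12.9%), Ifit2, Ifih1, Parp14 and Igtp, where the background over all genes was 5.5%. Both were lower for 1 member (3.23%), Irf1, where the background was 3.18%. No limma call stands behind any of them, and for the lower direction the share was that of all genes.

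The ligands that induce these genes were hardly seen. Of 15 interferon genes measured, among them 9 of the interferon alpha family and Ifnb1, 14 were listed at 0 in every library. Ifng measured 0.0386 and 0.0408 FPKM in treated 17 and 33/35, against 0.0393, 0 and 0.0446 FPKM in untreated 13, 14 and 15. A listed 0 can be a failed estimate in such tables, and levels this low carried no test.

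Receptor chains and the signalling core were present in every library. Of 6 receptor chains measured, 5 were tested and 0 passed in either direction. Ifnar2, a chain of the type I receptor, measured 65.5 and 86.1 FPKM in treated 17 and 33/35, against 86.1, 26.5 and 76.5 FPKM in untreated 13, 14 and 15. Ifngr1, the ligand-binding chain of the gamma receptor, measured 37.0 and 51.5 FPKM in treated libraries, against 50.6, 36.1 and 49.8 FPKM in untreated libraries. Both chains overlapped between the groups and were lowest in untreated 14.

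The 8 kinases, STATs and IRFs measured were all tested and 0 passed. Irf3, the factor that switches on interferon beta itself, measured 36.2 and 37.4 FPKM in treated 17 and 33/35, against 42.6, 25.4 and 37.3 FPKM in untreated 13, 14 and 15. Jak1, the kinase common to both pathways, measured 35.8 and 33.1 FPKM in treated libraries, against 35.3, 38.8 and 32.9 FPKM in untreated libraries. The groups overlapped for all 8 genes.

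Regulators around the pathway gave the same count. Among inhibitors, 7 of 8 were tested and 0 passed. The phosphatase gene Ptpn11 measured 49.8 and 47.9 FPKM in treated 17 and 33/35, against 60.2, 34.7 and 59.2 FPKM in untreated 13, 14 and 15, and Ptpn2, whose product removes phosphate from JAK1, measured 9.19 and 10.6 FPKM in treated libraries, against 10.2, 9.04 and 9.08 FPKM in untreated libraries. Of the nucleic acid sensing genes, 11 of 12 were tested and 0 passed. Mavs, the mitochondrial adaptor of the RNA sensors, measured 41.2 and 37.3 FPKM in treated 17 and 33/35, against 43.8, 39.8 and 40.2 FPKM in untreated 13, 14 and 15, and Tbk1, the kinase that activates IRF3, measured 9.48 and 9.76 FPKM in treated libraries, against 11.1, 8.67 and 10.2 FPKM in untreated libraries. Among the tested genes of both lists, the groups overlapped in every case. Socs1, an untested inhibitor gene that shuts down JAK kinases, measured 0.381 and 0.444 FPKM in treated libraries, against 0.504, 0.668 and 0.484 FPKM in untreated libraries, so both treated values lay below all untreated values.

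**Figure D3:**
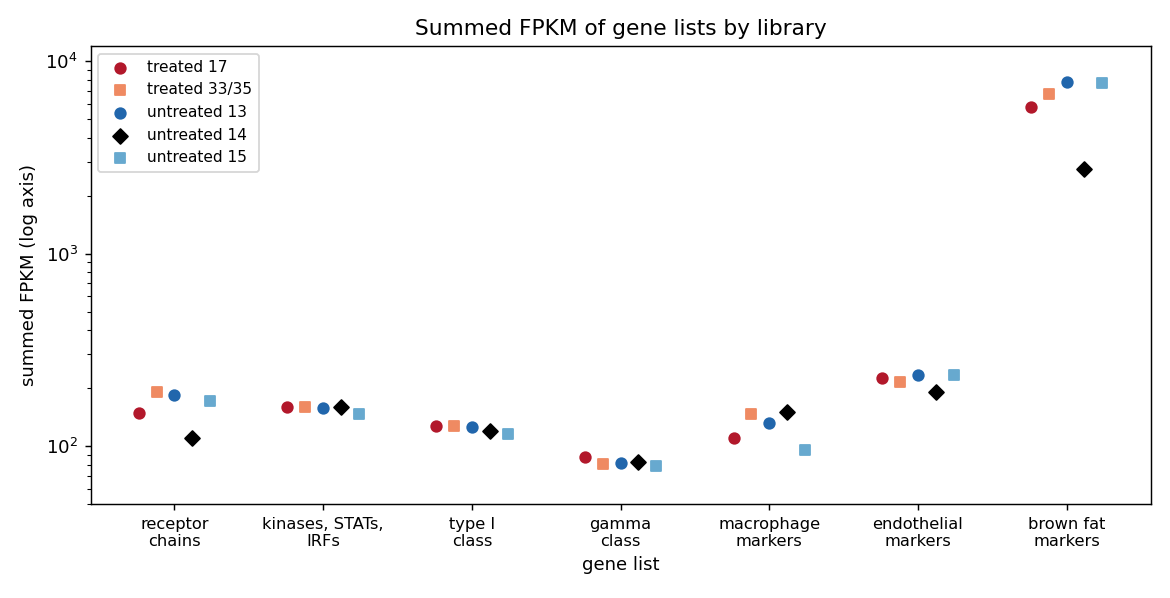
Summed FPKM (log axis) of interferon receptor chains, signalling genes, both classes of members and markers of other cell types; each point is 1 library. The sums of the type I class (115.9 to 127.7 FPKM) and the gamma class (79.0 to 87.5 FPKM) vary little between libraries, while brown fat markers drop to 2740 FPKM in untreated 14.

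The type I class begins with its transcription factors, of which Stat2 and Irf9 were level across the libraries and Irf7 less so. Stat2 measured 4.79 and 4.99 FPKM in treated 17 and 33/35, against 4.92, 4.43 and 4.65 FPKM in untreated 13, 14 and 15. Irf9, its DNA-binding partner, measured 6.59 and 7.18 FPKM in treated libraries, against 7.32, 6.64 and 7.33 FPKM in untreated libraries. Irf7, which amplifies interferon alpha production and is itself interferon-induced, measured 4.76 and 5.48 FPKM in treated libraries, against 4.51, 5.66 and 3.92 FPKM in untreated libraries. All 3 overlapped between the groups. Irf9 shares bases on its own strand with Rnf31, and Irf7 overlaps Phrf1 on the opposite strand; no source used here says how shared reads were counted.

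Among the RNA and DNA sensors, Ifih1 had both treated libraries above all untreated ones. Ifih1 (ENSMUSG00000026896), which encodes MDA5, a sensor of long double-stranded RNA, measured 3.80 and 4.39 FPKM in treated 17 and 33/35, against 3.19, 3.58 and 2.96 FPKM in untreated 13, 14 and 15. The nearest libraries, treated 17 and untreated 14, lay close together. Its log2 fold change came to 0.30 (SE 0.17, 95% interval -0.14 to 0.74; limma adjusted p = 1), with an unadjusted p of 0.142. Ddx58, which encodes RIG-I, the sensor of short RNA with a free triphosphate end, measured 8.45 and 11.3 FPKM in treated libraries, against 8.26, 5.93 and 8.98 FPKM in untreated libraries. Its groups overlapped, and the log2 fold change came to 0.34 (SE 0.25; limma adjusted p = 1). Dhx58 encodes LGP2, the third member of that helicase family, and measured 2.98 and 3.0 FPKM in treated libraries, against 3.80, 1.38 and 3.88 FPKM in untreated libraries. Dhx58 in treated libraries was above untreated 14 and below untreated 13 and 15. Zbp1, a sensor of Z-form nucleic acid that can start necroptosis, measured 0.923 and 1.09 FPKM in treated libraries, against 0.880, 1.83 and 0.964 FPKM in untreated libraries.

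The Ifit genes lie side by side on chromosome 19 (chr19:34550694-34650009 for the 3 members, GRCm38). They encode a family that includes proteins that bind viral RNA and block its translation. Ifit2 (ENSMUSG00000045932) measured 2.20 and 2.14 FPKM in treated 17 and 33/35, against 1.80, 1.997 and 1.40 FPKM in untreated 13, 14 and 15. Both treated values were above all untreated values, narrowly above untreated 14, and the log2 fold change came to 0.27 (SE 0.22; limma adjusted p = 1). Ifit1 measured 2.18 and 1.69 FPKM in treated libraries, against 1.26, 2.38 and 1.36 FPKM in untreated libraries, and Ifit3 measured 5.65 and 4.44 FPKM in treated libraries, against 4.76, 7.08 and 3.88 FPKM in untreated libraries. Ifit1 and Ifit3 were highest in untreated 14, while Ifit2 was not. Ifit3 has a near-identical copy, Ifit3b, whose reads the counting could divide between them.

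Isg15 and Usp18 are partners: Isg15 encodes a ubiquitin-like protein that is joined to other proteins, and Usp18 removes it and also blocks the type I receptor. Isg15 measured 5.22 and 5.01 FPKM in treated 17 and 33/35, against 5.39, 3.61 and 3.41 FPKM in untreated 13, 14 and 15. Usp18 measured 1.57 and 1.88 FPKM in treated libraries, against 1.27, 2.09 and 1.27 FPKM in untreated libraries. Each had 1 untreated library above both treated ones, untreated 13 for Isg15 and untreated 14 for Usp18.

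The Oas genes encode 2′-5′-oligoadenylate synthetases, which activate RNase L, and 3 of the members form a cluster at chr5:120730333-120907521. Oas2 measured 1.75 and 1.26 FPKM in treated 17 and 33/35, against 1.39, 2.57 and 1.44 FPKM in untreated 13, 14 and 15. Oas1a measured 0.921 and 0.936 FPKM in treated libraries, against 0.887, 1.31 and 0.738 FPKM in untreated libraries, and Oas3 stayed between 0.0724 and 0.154 FPKM. Oasl2, an Oas-like gene outside that cluster, measured 3.90 and 2.15 FPKM in treated libraries, against 2.13, 4.83 and 2.55 FPKM in untreated libraries. Untreated 14 was the highest library for all 4 of these genes, and members of this family share sequence that the counting could divide.

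The Mx genes encode dynamin-like GTPases that trap viral nucleocapsids and are known to be defective in common laboratory mouse strains such as C57BL/6. Mx1 measured 0.226 and 0.296 FPKM in treated 17 and 33/35, against 0.173, 0.229 and 0.388 FPKM in untreated 13, 14 and 15. Mx2 measured 0.429 and 1.14 FPKM in treated libraries, against 0.306, 0.488 and 0.465 FPKM in untreated libraries. Neither reached a mean of 1 FPKM, so neither was tested, and treated 33/35 alone held the high Mx2 value.

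Other antiviral effectors of the type I class included its most abundant member. Bst2, which encodes tetherin, a protein that holds budding virus at the cell surface, measured 27.6 and 27.9 FPKM in treated 17 and 33/35, against 27.8, 19.3 and 25.0 FPKM in untreated 13, 14 and 15. Rsad2 encodes viperin, an enzyme that makes a chain-terminating nucleotide, and measured 3.27 and 4.08 FPKM in treated libraries, against 5.80, 3.04 and 5.37 FPKM in untreated libraries. In both genes the lowest library was untreated 14. Parp14 (ENSMUSG00000034422), an ADP-ribosyltransferase gene, measured 5.39 and 5.17 FPKM in treated libraries, against 4.84, 4.41 and 4.47 FPKM in untreated libraries. Its groups did not overlap, and the log2 fold change came to 0.19 (SE 0.14; limma adjusted p = 1).

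Xaf1 went the other way in its mean. This gene, which encodes a partner of the apoptosis inhibitor XIAP, measured 9.30 and 9.09 FPKM in treated 17 and 33/35, against 11.9, 12.4 and 9.27 FPKM in untreated 13, 14 and 15. Untreated 15 lay between the treated values, and the log2 fold change came to -0.26 (SE 0.18; limma adjusted p = 1). Ifi35, an interferon-induced leucine zipper protein gene, measured 15.8 and 13.9 FPKM in treated libraries, against 13.4, 14.0 and 14.2 FPKM in untreated libraries. Trim30a, which encodes a mouse TRIM protein that restrains Toll-like receptor signalling, measured 4.29 and 4.41 FPKM in treated libraries, against 4.34, 4.62 and 3.86 FPKM in untreated libraries. The groups overlapped for both.

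Rtp4 measured 3.34 and 3.65 FPKM in treated 17 and 33/35, against 3.59, 5.03 and 3.22 FPKM in untreated 13, 14 and 15. Its annotated span is overlapped on the opposite strand by Masp1, which measured 0.990 and 0.294 FPKM in treated libraries, against 0.0157, 3.02 and 0.0178 FPKM in untreated libraries. Both genes were highest in untreated 14, and without the strand of the counting their reads cannot be told apart in the shared bases. Ifi44 measured 1.06 and 1.07 FPKM in treated libraries, against 0.960, 0.552 and 0.840 FPKM in untreated libraries. Both treated values of Ifi44 were above all untreated values, but its mean of 0.895 FPKM over the 5 libraries left it untested and outside the counts above.

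The gamma class begins with Irf1, the only tested member whose treated libraries were both below all untreated ones. Irf1 (ENSMUSG00000018899), a transcription factor gene induced by interferon gamma, measured 14.7 and 14.1 FPKM in treated 17 and 33/35, against 15.8, 16.9 and 16.5 FPKM in untreated 13, 14 and 15. The means were 14.4 ± 0.400 FPKM in treated libraries (SD, n = 2) and 16.4 ± 0.544 FPKM in untreated libraries (SD, n = 3). The log2 fold change came to -0.18 (SE 0.13, 95% interval -0.53 to 0.16; limma adjusted p = 1). Irf1 varied little, since its highest library was 1.199 times its lowest.

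The immunity-related GTPases coat the vacuoles of intracellular pathogens, with Iigp1 as an effector and Igtp, Irgm1 and Irgm2 as regulators that protect the cell's own membranes. Igtp (ENSMUSG00000078853) measured 7.14 and 7.88 FPKM in treated 17 and 33/35, against 6.32, 5.85 and 6.01 FPKM in untreated 13, 14 and 15. The means were 7.51 ± 0.525 FPKM in treated libraries (SD, n = 2) and 6.06 ± 0.239 FPKM in untreated libraries (SD, n = 3). Igtp had the smallest p of all members, with a log2 fold change of 0.29 (SE 0.14, 95% interval -0.07 to 0.64), an unadjusted p of 0.0897 and a limma adjusted p of 1. Its neighbour Irgm2, at chr11:58199556-58222782 together with Igtp, measured 6.94 and 6.35 FPKM in treated libraries, against 5.63, 6.21 and 6.42 FPKM in untreated libraries. Irgm2 overlapped between the groups, and because these genes share bases on the same strand, some reads could have been counted for either.

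Iigp1 measured 8.29 and 5.76 FPKM in treated 17 and 33/35, against 5.28, 3.95 and 6.54 FPKM in untreated 13, 14 and 15. Its log2 fold change of 0.39 (SE 0.28) had a limma adjusted p of 1, and treated 17 alone stood above the untreated libraries. Irgm1 measured 11.01 and 9.48 FPKM in treated libraries, against 8.94, 14.8 and 9.18 FPKM in untreated libraries. Here untreated 14 was highest and the other untreated libraries lowest.

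The guanylate-binding proteins are a further family of GTPases that act on such vacuoles, and their 3 members lie together at chr3:142530342-142638008. Gbp2 measured 15.0 and 14.2 FPKM in treated 17 and 33/35, against 17.6, 13.9 and 12.7 FPKM in untreated 13, 14 and 15. Gbp3 measured 9.87 and 8.504 FPKM in treated libraries, against 8.75, 6.04 and 8.56 FPKM in untreated libraries, and Gbp7 measured 5.92 and 4.85 FPKM in treated libraries, against 5.39, 5.52 and 5.84 FPKM in untreated libraries. No Gbp member separated the groups, and the similar sequences of this family leave single members uncertain.

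Cxcl9 and Cxcl10 are neighbours at chr5:92321347-92348889 and encode chemokines that draw T cells bearing CXCR3. Cxcl9 measured 6.67 and 7.68 FPKM in treated 17 and 33/35, against 7.20, 3.14 and 6.33 FPKM in untreated 13, 14 and 15. Cxcl10 (ENSMUSG00000034855) measured 1.94 and 1.702 FPKM in treated libraries, against 1.18, 6.48 and 0.990 FPKM in untreated libraries. Untreated 14 was thus the lowest library for Cxcl9 and the highest for Cxcl10, which there reached 5.98 times the mean of untreated 13 and 15. The log2 fold change of Cxcl10, named after its values were seen, was -0.16 (SE 0.76) with all 5 libraries and 0.55 without untreated 14, with limma adjusted p of 1 and 0.430.

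Cxcl10 lies inside the span of Art3, a gene of the ADP-ribosyltransferase family on the opposite strand. Art3 measured 128 and 137 FPKM in treated 17 and 33/35, against 80.8, 190.0 and 86.7 FPKM in untreated 13, 14 and 15. Art3 was far above Cxcl10 in every library, and both were highest in untreated 14 and lowest in untreated 13 and 15. No source used here says whether the counting used strand, so reads of Cxcl10 and Art3 cannot be told apart where they overlap.

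**Figure D4:**
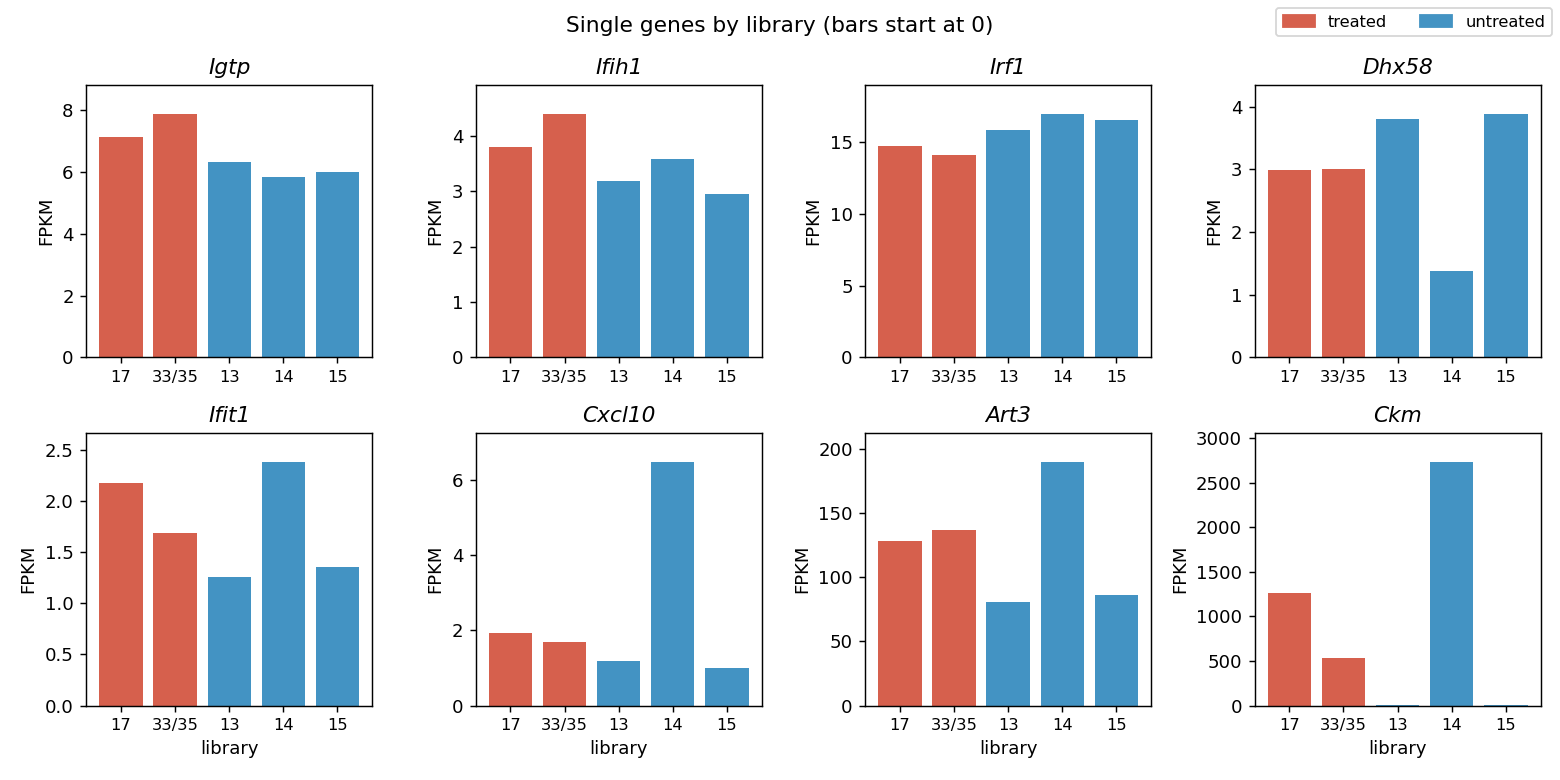
FPKM of 6 members and of Art3 and Ckm (muscle creatine kinase) in each library, with treated 17 and 33/35 in red and untreated 13, 14 and 15 in blue; each bar is 1 library. Igtp and Ifih1 have both treated bars above the untreated bars and Irf1 both below, while Cxcl10, Art3 and Ckm peak in untreated 14.

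Other interferon-induced genes outside the 36 give a wider view of the response. Of 53 measured, 39 were tested and 0 passed in either direction (limma, adjusted p under 0.05). Both treated libraries were above all untreated libraries for 5 of the 39, where the background over all genes was 5.5%, and below for 0, where it was 3.18%. The smallest p was that of Gbp9, a guanylate-binding protein gene, which measured 8.97 and 8.16 FPKM in treated 17 and 33/35, against 6.14, 6.22 and 7.10 FPKM in untreated 13, 14 and 15. Its log2 fold change came to 0.38 (SE 0.15; limma adjusted p = 1). Tgtp2, an immunity-related GTPase gene with a near-identical copy, Tgtp1, measured 7.08 and 5.58 FPKM in treated libraries, against 3.61, 2.25 and 4.65 FPKM in untreated libraries. Its log2 fold change came to 0.81 (SE 0.32; limma adjusted p = 1). Sp100, a nuclear body gene, measured 16.7 and 15.2 FPKM in treated libraries, against 14.6, 13.8 and 13.1 FPKM in untreated libraries.

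Untreated 14 was the highest of the 5 libraries for 13 of 31 members (41.9%, against 33.5% of all genes) and the lowest for 10 (32.3%, against 43.6%). It was above both other untreated libraries for 15 of 31 members (48.4%, against 39.6% of all genes) and below both for 11 (35.5%, against 48.6% of all genes). In the type I class 12 of 21 members were above and 7 below, and in the gamma class 3 of 10 were above and 4 below. Besides Cxcl10, the tested members highest there relative to the mean of untreated 13 and 15 were Oasl2 (2.06 times), Zbp1 (1.98 times), Ifit1 (1.82 times), Oas2 (1.81 times) and Usp18 (1.65 times). Zbp1 reached the mean of 1 FPKM only through its value in untreated 14. Its place here and in the counts above was thus partly set by the filter. The lowest there among tested members were Dhx58, for which the other untreated libraries averaged 2.79 times untreated 14, Cxcl9 (2.16 times) and Rsad2 (1.84 times). The members therefore did not move as a block in this library.

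**Figure D5:**
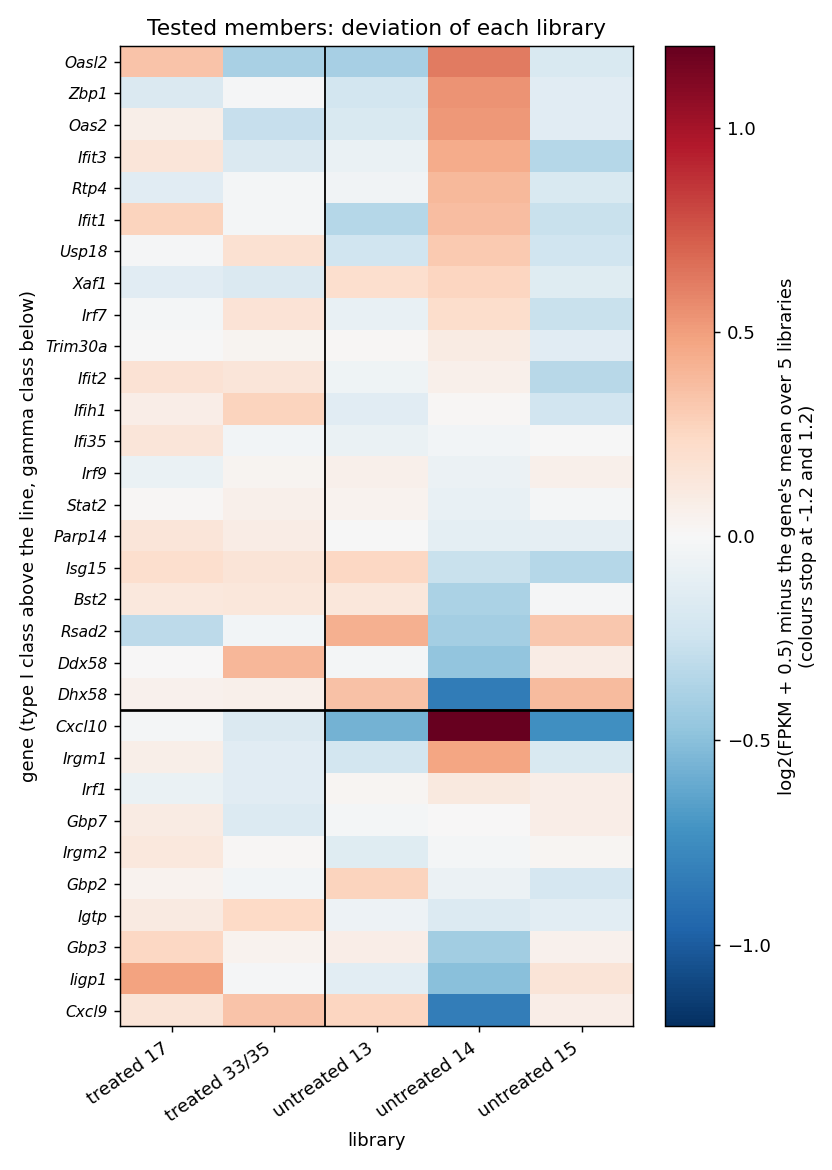
Deviation of each library from the gene's mean over the 5 libraries, on the log2(FPKM + 0.5) scale, for the 31 tested members, treated 17 and 33/35 at the left; red is above the mean and blue below, and colours stop at 1.2 on either side. The untreated 14 column holds the darkest cells of both colours, with Cxcl10 the most red and Dhx58 and Cxcl9 among the most blue.

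The muscle markers that set untreated 14 apart also ranked the other libraries, with treated 17 next, treated 33/35 after it, and untreated 13 and 15 lowest; 0 of the 21 muscle markers tested passed with all 5 libraries, and Myh4 was listed at 0 in the first 3 of these libraries. Without untreated 14, 20 of the 21 muscle markers were called higher in treated libraries (limma, adjusted p under 0.05), with a median log2 fold change of 7.56 over the list. Ifit1, Irgm1 and Cxcl10 followed that order (9.68% of members, against 12.9% of all genes), and Rsad2 and Dhx58 ran exactly against it (6.45%, against 10.8%). Without untreated 14, both treated libraries were higher than both remaining untreated ones for 9 of 31 members (29%, background 25.3%) and lower for 4 (12.9%, background 20.8%). The higher ones were Ifit1, Ifit2, Irf7, Usp18, Ifih1, Parp14, Igtp, Irgm1 and Cxcl10, and the lower ones were Irf9, Rsad2, Dhx58 and Irf1. Ifit2, Ifih1, Parp14, Igtp and Irf1 separated the groups with and without that library, as must be the case when a library is only removed. In limma without untreated 14, 0 of the 30 members then tested were called, Zbp1 having dropped below the filter. Of the 30, 1 had an unadjusted p under 0.05, which was Rsad2, against 1634 of 13368 genes. Over all genes the calls numbered 158 instead of 6.

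Markers of cells that carry or make interferon were compared beside the members. The sum of 10 macrophage markers was 110.3 and 147 FPKM in treated 17 and 33/35, against 131.5, 149.5 and 95.8 FPKM in untreated 13, 14 and 15, and 0 of the 9 tested passed. For 10 T and natural killer cell markers the sum was 2.42 and 2.83 FPKM in treated libraries, against 3.73, 1.32 and 1.35 FPKM in untreated libraries, and none reached the filter; Cd3d was listed at 0 in untreated 14 and Cd3g in treated 17. Siglech, the defining marker of plasmacytoid dendritic cells, measured 0.629 and 0.441 FPKM in treated libraries, against 0.666, 0.298 and 0.0945 FPKM in untreated libraries. All 5 markers of that cell, Bst2 among them, summed to 53.9 and 57.8 FPKM in treated libraries, against 52.7, 41.8 and 48.5 FPKM in untreated libraries, and 0 of the 2 tested passed. The sum of 5 B cell markers, none of which reached the filter, was 1.58 and 1.55 FPKM in treated libraries, against 2.86, 1.03 and 1.25 FPKM in untreated libraries. The sum of 8 endothelial markers, 0 of which passed, was 226.7 and 215.5 FPKM in treated libraries, against 234, 191.1 and 235 FPKM in untreated libraries. Both treated libraries were above all untreated ones for the plasmacytoid dendritic cell sum. That sum came almost wholly from Bst2, itself a member, and Tcf4, since the other 3 markers averaged below 1 FPKM. Siglech overlapped between the groups. Cd14, Tek and Tcf4 were the single tested markers with both treated libraries above all untreated ones. The macrophage marker Cd14 measured 3.48 and 4.49 FPKM in treated libraries, against 2.75, 3.36 and 2.47 FPKM in untreated libraries. Tek measured 13.8 and 13.6 FPKM in treated libraries, against 11.9, 10.5 and 12.7 FPKM in untreated libraries. Tcf4 measured 25.3 and 29.1 FPKM in treated libraries, against 23.1, 22.0 and 23.2 FPKM in untreated libraries. The brown fat marker Ppargc1a ran below, with 13.1 and 12.7 FPKM in treated libraries, against 19.9, 15.0 and 16.0 FPKM in untreated libraries. Higher were thus 1 of 9 tested macrophage, 1 of 8 endothelial and 1 of 2 plasmacytoid dendritic cell markers, against 5.5% of all genes. Lower was 1 of 8 brown fat markers, against 3.18% of all genes. Fold changes ran both ways in the macrophage (6 up, 3 down), endothelial (5 up, 3 down) and brown fat (6 up, 2 down) lists. Lymphocyte markers were low throughout, macrophage and endothelial sums overlapped between the groups, and the part of all these markers in the members' values was not tested. In whole tissue, fewer cells of a type and less RNA per cell cannot be told apart.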

How the data were processed

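Per the labels' protocols, Illumina total RNA libraries were prepared from whole brown adipose tissue. The authors deposited FPKM values for 45320 Ensembl identifiers in each of 6 samples, per the file headers. The submitters' processing notes name CASAVA 1.7 and build GRCm38; no source used here gives the aligner, the quantification program or the use of strand. The number of reads behind a value is unknown, and fold changes on the log2(FPKM + 0.5) scale understate the change of low genes.

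Names and coordinates came from GENCODE M21 (GRCm38), which held 44395 identifiers; Irf8 and Mb21d1 were not matched. The 2 identical tables were counted once, which turned the planned comparison of 3 against 3 samples into 2 against 3. Genes averaging 1 FPKM or more were fitted in limma 3.58.1 (R 4.3.3) with empirical Bayes moderation and a variance trend, two-sided, with adjusted p under 0.05 as the threshold. The fit was also run on simulated data with planted changes and noise drawn separately for each gene. That simulation held no shift shared by many genes of 1 library, and its counts are not used here. Python 3.11.15, numpy 2.4.6, pandas 2.3.3 and matplotlib 3.10.9 did the rest.

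The members and lists were chosen with earlier results of these data known. Values are given for all members. Fold changes are given for members whose groups did not overlap and the 3 of smallest p in each class. From other pathway lists, genes past the threshold were to be named, otherwise up to 3 that did not overlap, otherwise the 2 of highest mean. Cxcl10's fold change and Ifi44, Socs1, Art3, Masp1 and individual cell type markers were named after their values were seen. Alternatives covered the pseudocount, filter, scaling, variance trend, sample weights, identical tables and each library left out.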

Additional observations from a re-analysis of the deposited data

How the results depend on the processing

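No member passed the limma threshold under any of the alternatives that left more than 1 library in each group (0 members each time, also at adjusted p under 0.1). With sample weights, 3 of 31 members had an unadjusted p under 0.05, against 1447 of 13527 genes. The number was 2 of 31 with the identical tables counted separately, against 434 of 13537 genes. It was 1 of 30 without untreated 14, against 1634 of 13368 genes. Of 135 fold changes (9 members, 15 alternatives), 133 kept their direction and stayed past no threshold, with adjusted p from 0.43 to 1. The 2 that reversed were those of Cxcl10, 0.48 with sample weights and 0.55 without untreated 14, and its values with 1 library left out ran from -0.56 to 0.55; the cause was not tested. With 1 library left out, 3 others moved by over 1.5 times: Iigp1 (0.39) was 0.15 without treated 17, 0.64 without treated 33/35 and 0.22 without untreated 14, Ddx58 (0.34) was 0.54, 0.14 and 0.17 in the same order, and Ifit2 (0.27) was 0.15 without untreated 15. Quantile normalization lowered Parp14 (0.19) to 0.053, Ifit2 to 0.082, Ifih1 (0.30) to 0.14 and Igtp (0.29) to 0.16. These are the 4 members with both treated libraries higher. Irf1 (-0.18) was -0.26 on that scale. With sample weights Ddx58 was 0.20. The count over all genes moved from 6 to 2 with a pseudocount of 0.1, 0 with no filter and 10 with sample weights, and ran from 0 to 158 (without untreated 14) with 1 library left out. The median log2 fold change with quantile normalization was -0.068 (type I) and -0.045 (gamma), that of the type I class ran from 0.033 (without untreated 15) through 0.051 (without treated 17) to 0.13 (without untreated 14), and that of the gamma class was 0.12 with sample weights and ran from 0.012 (without treated 17) to 0.13 (without treated 33/35). Leaving out a treated library leaves 1, which limma then assumes to vary like the untreated ones. After the data were seen, the count of members whose groups do not overlap was repeated without untreated 14 (9 higher in place of 4, 4 lower in place of 1). No paired analysis was possible because the groups share no sample numbers. Read totals are unknown, so levels under 1 FPKM carry no counting interval.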
